A study of Mus musculus with 12 samples.

Results

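Malat1, Neat1, Kcnq1ot1, Meg3 and Gm26917 are 5 of the 55418 genes in a count table of 12 single tendon cells, and 5 of its 13359 genes that the GENCODE M21 annotation classes as long non-coding. They were chosen by their counts in these same cells, read by genotype and by degradation level, so every value below is a description and none was tested. Their label places them in the nucleus, a location that was not measured here. The annotation classes Kcnq1ot1 as antisense and the other 4 as lincRNA.

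The study asked what changes in Scx-expressing tendon cells that lack tenomodulin (Tnmd), a membrane glycoprotein of tendons. Single cells that carried green fluorescence driven by Scx, a transcription factor of the tendon lineage, were picked with a micromanipulator after 8 hours of collagenase and amplified by Smart-Seq2, which reads the whole transcript and tags no molecules. All 12 cells came from uninjured Achilles tendons of untreated mice on a C57BL/6 background (C57BL/6J in the methods). The groups were 6 Tnmd-/- ScxGFP+ cells, from mice with a constitutive knockout, and 6 WT ScxGFP+ cells. The labels give no age and name no animal for a cell. Tnmd lies on chromosome X, and by the methods the WT group of the study also took in heterozygous females. Xist, another gene of chromosome X, had 0 counts in all 12 cells, and the sex of the cells was not tested. Each genotype therefore counts as 1 sample, no p-value was computed, and cells are named by the number they were picked under. The study's own annotation marks cells 9, 10 and 20 of the Tnmd-/- and cells 4, 5 and 10 of the WT as less degraded and the other 3 cells of each genotype as more degraded.

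Total counts ran from 892713 to 10333351 per Tnmd-/- cell and from 4516036 to 13613080 per WT cell. The levels of degradation differed in depth, with 6742665 to 13613080 counts in the less degraded and 892713 to 5991316 in the more degraded cells, so depth and degradation cannot be told apart. Tnmd-/- cells 3 and 7, the shallowest, stood apart with 1504775 and 892713 counts, and mitochondrial genes took 51.8% of the counts of cell 3 against 1.75% to 7.30% in the other cells. Tnmd summed to 8 counts over the Tnmd-/- cells and to 10185 over the WT cells, 10178 of them in WT cell 14, and Scx summed to 3 and 2074, and each was counted in 5 of 12 cells. The tendon fibroblast list (11 genes) summed to 52152 CPM (counts per 1000000 counts of the library) over the Tnmd-/- cells and to 69918 CPM over the WT cells, with 1696 to 87463 and 31910 to 176923 CPM per cell. Markers of immune cells, skeletal muscle and red blood cells held under 20 counts a gene. Mural cell markers summed to 86.1 CPM in the Tnmd-/- against 161 CPM in the WT cells, with up to 191 and 668 CPM in a cell. Glia markers summed to 11.1 against 44.0 CPM, with up to 37.7 and 173 CPM in a cell. Endothelial markers summed to 4.65 against 0.0561 CPM, with up to 30.1 and 0.167 CPM in a cell. The cartilage list (3 genes) summed to 711 against 65.2 CPM, with the Tnmd-/- cells above in the less degraded level (median log2 ratio 5.09) and below in the more degraded one (-4.97). Both rested on few cells. In the less degraded level Tnmd-/- cells 9 and 10 held Acan at 849 and 1042 CPM, and Tnmd-/- cell 20 had 0 counts of Sox9 and Acan. In the more degraded level WT cell 1 held Sox9 at 253 CPM and WT cell 2 Acan at 234 CPM. The adipocyte list summed to 39.6 against 0.0561 CPM, and nearly all of it was Fabp4 in Tnmd-/- cell 3, at 922 CPM, so that without cells 3 and 7 its log2 ratio was 0.086. The part of the mural, glia, endothelial, cartilage and adipocyte lists in the values below was not tested.

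Long non-coding RNAs do not code for protein, and many act where they are made. Malat1 gathers in nuclear speckles, the stores of splicing factors, and Neat1 is the scaffold around which paraspeckles form. Kcnq1ot1 and Meg3 are imprinted: Kcnq1ot1 silences neighbouring genes on the paternal chromosome, and Meg3 is transcribed from the maternal one. Of Gm26917 little is established, and it lies beside ribosomal RNA sequence.

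All positions are those of GRCm38. Malat1 (ENSMUSG00000092341) is a gene of 1 exon of 6983 bases on the minus strand of chromosome 19, from 5795690 to 5802672. Neat1 (ENSMUSG00000092274) lies 22035 bases away on the same strand, from 5824708 to 5845478, with 20771 exonic bases. Kcnq1ot1 (ENSMUSG00000101609) spans 93092 exonic bases on the minus strand of chromosome 7, from 143203458 to 143296549, inside the potassium channel gene Kcnq1, which runs the other way and had 0 counts in every cell. Meg3 (ENSMUSG00000021268) is on the plus strand of chromosome 12, from 109541001 to 109571726, with 18089 exonic bases. Gm26917 (ENSMUSG00000097971) is on the plus strand of chromosome 17, from 39843013 to 39846341, with 3329 exonic bases, and ends 12 bases before Rn18s-rs5, which RefSeq lists as a pseudogene. Between 0% and 8.29% of the exonic bases of the 5 overlapped exons of another annotated gene, and the genes with those exons had 0 counts. Whether counting used the strand is not given in the sources used here. Reads of Gm26917 may be shared with ribosomal RNA copies, so its counts are uncertain.

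Smart-Seq2 starts its cDNA with an oligo(dT) primer, which pairs with runs of A, whether in a poly(A) tail or inside a transcript. For this reason the longest run of A in 4 of the RNAs is shown, in capitals with 24 bases to each side, read 5′ to 3′ from the GENCODE M21 transcript. The stretches lie at chr19:5795964-5796023 (minus strand) for Malat1, chr19:5835910-5835964 (minus strand) for Neat1, chr7:143226921-143227009 (minus strand) for Kcnq1ot1 and chr17:39845112-39845163 (plus strand) for Gm26917.
Malat1: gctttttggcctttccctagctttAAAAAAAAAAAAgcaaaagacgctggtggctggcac
Neat1: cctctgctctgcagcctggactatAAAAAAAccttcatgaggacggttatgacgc
Kcnq1ot1: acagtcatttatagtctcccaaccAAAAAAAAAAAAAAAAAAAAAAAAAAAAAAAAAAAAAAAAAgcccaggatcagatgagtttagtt
Gm26917: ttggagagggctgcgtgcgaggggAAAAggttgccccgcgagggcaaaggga
The run was 12 bases long in Malat1, where it stands 298 bases before the annotated end, and 41 bases in Kcnq1ot1, which held 10 runs of at least 10. The longest run of Neat1 was 7 bases and that of Gm26917 4 bases. Among 24356 GENCODE transcripts of at least 3000 bases, 21.8% held a run of 10 or more A. Gm26917 was 69.1% G and C, against a median of 47.7% over those transcripts, and 0.00821% of them, its own transcript included, reached its value. The part these runs played in the counts was not tested.

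Malat1 was counted in every cell, Neat1, Kcnq1ot1 and Gm26917 had at least 1 count in every cell, and Meg3 was seen in 1 cell. At least 10 counts were reached in 12 of 12 cells by Malat1, in 11 by Neat1 and Kcnq1ot1, in 6 by Gm26917 and in 1 by Meg3. A sum of 20 counts or more was found for 9768 genes, of which 2.18% reached 10 counts in all 12 cells and 3.76% in at least 11. The 5 RNAs together took from 0.150% of a library in WT cell 4 to 6.25% in Tnmd-/- cell 7. Genes classed as long non-coding took 0.704% to 12.4% of a library, and the 5 made up 17.98% to 50.5% of those counts. By summed counts Malat1 stood first among the long non-coding genes, Kcnq1ot1 6th, Neat1 7th, Gm26917 16th and Meg3 594th. The annotated class also holds Cct6a and Ifi30, which are known as protein-coding genes and were singled out after their counts were seen. Without them Kcnq1ot1 stood 5th, Neat1 6th and Gm26917 14th, and the 5 made up 19.2% to 52.0% of the class.

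**Figure D1:**
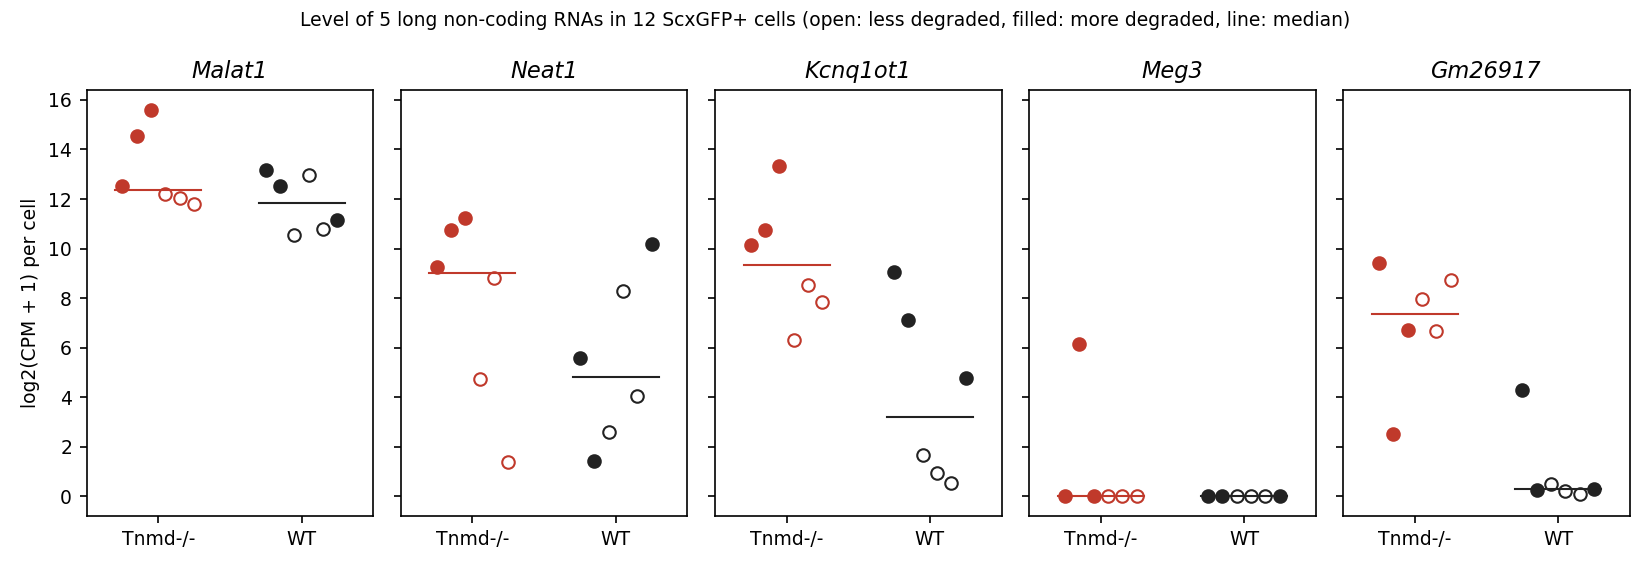
Level of each RNA in each of the 12 cells, as log2(CPM + 1) on the y axis, with the genotype on the x axis, open points for less degraded and filled points for more degraded cells, and a line at the median of 6 cells. Malat1 is high in all cells, Kcnq1ot1 separates the genotypes within each degradation level, Gm26917 is near 0 in 5 of 6 WT cells, and Meg3 has a value in Tnmd-/- cell 3 alone.

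Malat1, the speckle RNA, was the most abundant of the 5 in every cell. It reached 5909, 23642 and 49668 CPM in Tnmd-/- cells 1, 3 and 7, and 4762, 4219.8 and 3587 CPM in cells 9, 10 and 20. The WT cells 1, 2 and 14 held 9270.1, 5949.9 and 2285 CPM, and cells 4, 5 and 10 held 1492, 8102 and 1769.7 CPM. Both shallow Tnmd-/- cells were far above the rest, and the other 4 lay inside the range of the WT cells. In Tnmd-/- cell 7 it was the gene with the most counts, with 44339 counts and 4.97% of the library, and in WT cell 4 it stood 75th, with 0.149%. The highest cell was 13.8-fold above the lowest among the Tnmd-/- and 6.21-fold among the WT cells.

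Neat1, the paraspeckle scaffold, varied far more. Its level was 605, 1715 and 2396 CPM in Tnmd-/- cells 1, 3 and 7, and 25.6, 444 and 1.63 CPM in cells 9, 10 and 20. The WT cells 1, 2 and 14 held 47.2, 1.66 and 1172 CPM, and cells 4, 5 and 10 held 4.97, 307 and 15.4 CPM. High and low cells thus occurred in both genotypes, and WT cell 14 gave 55.4% of the 9551 WT counts. From lowest to highest the range was 1469-fold among the Tnmd-/- cells and 707-fold among the WT cells. The lowest cells, Tnmd-/- cell 20 and WT cell 2, held 11 and 8 counts, with exact Poisson intervals of 0.814 to 2.92 CPM and 0.716 to 3.27 CPM.

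Kcnq1ot1, the imprinted antisense RNA, was higher in the Tnmd-/- cells within each degradation level. Among the less degraded cells it had 77.6, 371 and 229 CPM in Tnmd-/- cells 9, 10 and 20. The WT cells 4, 5 and 10 of that level had 2.16, 0.915 and 0.441 CPM, from 27, 11 and 6 counts. Among the more degraded cells it had 1133, 1704 and 10381 CPM in Tnmd-/- cells 1, 3 and 7, and 524, 139.7 and 26.1 CPM in WT cells 1, 2 and 14. The genotypes did not overlap in either level, but they did over all 12 cells, where WT cells 1 and 2 lay above Tnmd-/- cell 9. Within a level the genotypes also differed in other ways. Less degraded cells held 6742665 to 10333351 counts (Tnmd-/-) against 12019550 to 13613080 (WT). Mitochondrial genes took 5.73% to 51.8% of more degraded Tnmd-/- cells against 2.33% to 3.54% of WT cells. The part of either in the Kcnq1ot1 values was not tested. In Tnmd-/- cell 7 Kcnq1ot1 was the gene with the 6th most counts and took 1.04% of the library.

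Meg3, the maternally expressed RNA of the Dlk1-Dio3 domain, had 105 counts in Tnmd-/- cell 3, or 69.8 CPM, and 0 counts in the other 11 cells. With 3 counts taken as the limit of a summed 0, the WT cells allow a level of up to 0.0561 CPM. The floor was 0.220 to 3.36 CPM for a single cell, so the cells at 0 were all below the level in cell 3. The other long non-coding RNAs of that domain, Rian and Mirg, had 0 counts in all 12 cells.

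Gm26917 was higher in the Tnmd-/- cells, with 1 exception. It reached 684, 4.65 and 104.2 CPM in Tnmd-/- cells 1, 3 and 7, and 251, 102.5 and 427 CPM in cells 9, 10 and 20. WT cell 1 held 18.7 CPM, from 112 counts, and the other 5 WT cells held 0.0735 to 0.401 CPM, from 1 to 5 counts. Only Tnmd-/- cell 3, with 7 counts, lay inside the WT range. WT cell 1 gave 91.8% of the 122 WT counts. Its neighbours Gm42418 and AY036118, also listed at the ribosomal RNA sequence of chromosome 17, had 0 counts in every cell.

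For the genotypes as a whole, the counts of 6 cells were added and set against their joint total of 35088506 (Tnmd-/-) or 53439236 counts (WT). The ratios of these levels are given as log2 of Tnmd-/- over WT with an exact interval (Clopper-Pearson, 95%), which covers counting error only and is far narrower than the spread between cells. Malat1 had 6503 against 4391 CPM, a log2 ratio of 0.57 (0.56 to 0.57), and was higher in the Tnmd-/- cell in 24 of the 36 pairs of a Tnmd-/- and a WT cell. Neat1 had 364 against 179 CPM, a log2 ratio of 1.03 (0.99 to 1.07), with 25 of 36 pairs. For both, the genotypes differed by less than the cells of either genotype differed among themselves. Kcnq1ot1 had 685 against 74.4 CPM, a log2 ratio of 3.20 (3.15 to 3.25), with 32 of 36 pairs. Gm26917 had 10260 against 122 counts, or 292 against 2.28 CPM, with 35 of 36 pairs. Meg3 was at least 53.3-fold higher in the Tnmd-/- sum, which came from 1 cell.

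These values need the background of the whole table beside them. With 1 CPM added, 35.5% of the 9768 genes were at least 2-fold higher and 34.9% at least 2-fold lower in the Tnmd-/- sum, with a median log2 ratio of 0.06. Of the 5 RNAs, 4 were at least 2-fold higher, Neat1 only just, and Malat1 was not. No overlap over all 12 cells, with the Tnmd-/- cells higher, occurred for 0.0205% of genes and for none of the 5. At least 24 of 36 pairs were higher in 5.28% of genes, at least 25 in 3.54%, at least 32 in 0.246% and at least 35 in 0.0307%. Many of the 9768 genes were seen in few cells, with a median of 2 cells at 10 counts, so these shares come from sparser genes than most of the 5.

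The ratio was also taken within each degradation level, with 3 cells against 3. Among the less degraded cells the log2 ratio was 0.22 for Malat1 and 0.77 for Neat1, while it was 7.61 for Kcnq1ot1, from 6174 against 44 counts, and 10.15 for Gm26917, from 6529 against 8 counts. Among the more degraded cells it was 1.23 for Malat1, 1.498 for Neat1, 3.17 for Kcnq1ot1 and 6.02 for Gm26917, and Meg3 was at least 69.6-fold higher. The less degraded level had 28.3% of genes at least 2-fold higher and 31.2% lower in the Tnmd-/- cells, with 2 of the 5 RNAs among the higher. The more degraded level had 29.6% higher and 25.6% lower, with all 5 among the higher. In the less degraded level the cells of Kcnq1ot1 and Gm26917 did not overlap between genotypes, which held for 2.55% of genes in that direction. In the more degraded level those of Kcnq1ot1 did not, against 2.89% of genes. Kcnq1ot1 was without overlap in both levels, as were 0.0614% of genes. The genotypes were also without overlap in total counts in the less degraded level and in mitochondrial share in the more degraded one. The part of these in the ratios was not tested. With 3 cells a side, single cells turned the direction of the first pair in the less degraded level: Malat1 gave -0.15 without WT cell 4 and also without WT cell 10, and 1.38 without WT cell 5, and Neat1 gave -2.69 without Tnmd-/- cell 10 and 4.09 without WT cell 5. In the more degraded level Malat1 ran from 0.67 to 2.43, Neat1 from 0.86 to 5.26, Kcnq1ot1 from 2.30 to 4.77 and Gm26917 from 2.49 without Tnmd-/- cell 1 to 11.14 without WT cell 1. In the less degraded level Kcnq1ot1 stayed between 6.90 and 8.41 and Gm26917 between 9.70 and 10.99.

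**Figure D2:**
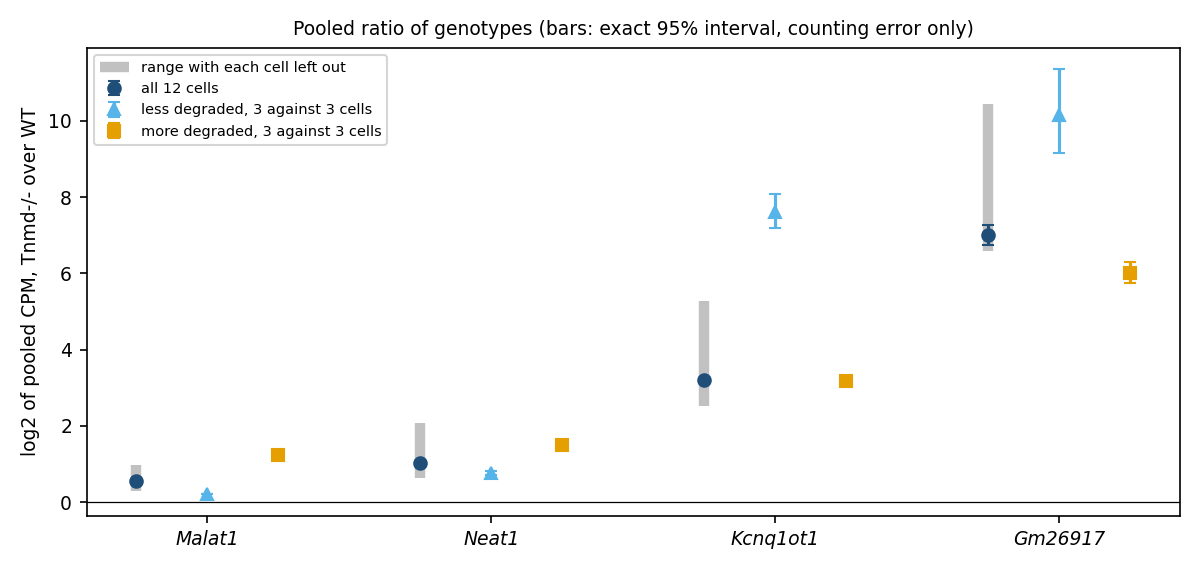
Log2 of the pooled CPM of the Tnmd-/- over the WT cells (y axis) for 4 RNAs (x axis), over all 12 cells and within each degradation level, with exact 95% intervals for counting error and a grey bar for the range when each cell in turn was left out. The grey bars of Malat1 run from 0.29 to 0.97 and those of Gm26917 from 6.59 to 10.44, and the less and more degraded values are 7.61 and 3.17 for Kcnq1ot1 and 10.15 and 6.02 for Gm26917.

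Single cells moved some of these ratios. Without WT cell 1, the log2 ratio of Kcnq1ot1 rose to 5.28 and that of Gm26917 to 10.44, since this cell held most of the WT counts of both. Without WT cell 14 the ratio of Neat1 rose to 2.07, and without WT cell 10 it was 0.64. Without Tnmd-/- cell 7 the ratio of Kcnq1ot1 was 2.54 and that of Malat1 0.29, and without WT cell 5 that of Malat1 was 0.97. Without both shallow Tnmd-/- cells the ratio was 0.047 for Malat1, 0.46 for Neat1, 2.33 for Kcnq1ot1 and 7.09 for Gm26917. Without Tnmd-/- cell 3 Meg3 had 0 counts in both genotypes.

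How a library was scaled mattered more for Malat1, Neat1 and Kcnq1ot1 than for Gm26917. The edgeR TMM factor, which rescales a library by the bulk of its genes, was 0.225 in Tnmd-/- cell 7 and 0.529 in cell 3, against 0.905 to 1.54 in the other cells. Averaged over cells without these factors, the log2 ratio was 1.67 for Malat1, 1.74 for Neat1, 4.32 for Kcnq1ot1 and 6.31 for Gm26917. Averaged over cells with these factors, it was 3.56 for Malat1, 3.39 for Neat1, 6.67 for Kcnq1ot1 and 6.84 for Gm26917. A low factor raises the level of a cell, so the shallow Tnmd-/- cells weigh more in the latter means. The median over the 9768 genes shifted by -0.11 under the TMM scaling. All 4 ratios stayed above 0 under each scaling tried.

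Between the degradation levels, all of the RNAs but Gm26917 had a pooled level at least 2-fold higher in the more degraded cells. As log2 of less over more degraded, the ratio was -1.19 for Malat1, -2.12 for Neat1, -3.32 for Kcnq1ot1 and -0.74 for Gm26917, and Meg3 was at least 99.5-fold higher in the more degraded sum. Over all genes the median was 0.49, with 43.2% at least 2-fold higher and 32% at least 2-fold lower in the less degraded cells. With DESeq2 size factors the median moved by -0.58 and the split turned to 32.9% higher and 39.5% lower. No overlap over all 12 cells, with the more degraded cells higher, was found for 0.0512% of genes and none of the 5.

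Within the Tnmd-/- cells the 3 more degraded ones lay above the 3 less degraded ones for Malat1, Neat1 and Kcnq1ot1, with log2 ratios of -1.76, -2.54 and -3.36. The same lack of overlap occurred for 1.78% of genes, while 35.7% of genes were at least 2-fold higher and 26.6% at least 2-fold lower in the less degraded Tnmd-/- cells, all 5 RNAs among the lower. Within the WT cells Kcnq1ot1 did not overlap either, at 44 against 3933 counts, a log2 ratio of -7.80, against 1.72% of genes. Malat1 and Neat1 overlapped there, with -0.75 and -1.81. In the WT cells 37.5% of genes were at least 2-fold higher and 22.4% lower in the less degraded cells, with Neat1, Kcnq1ot1 and Gm26917 among the lower. For Neat1 this rested on WT cell 14, which gave 5295 of the 5586 counts of the more degraded WT cells and without which the log2 ratio turned to 1.95, and for Gm26917 on WT cell 1, which gave 112 of 114 and without which 8 against 2 counts were left (-0.028). Kcnq1ot1 was without overlap in both genotypes, as were 0.0717% of genes. The Gm26917 ratio over all 12 cells rested on Tnmd-/- cell 1, without which it turned to 3.05, and that within the Tnmd-/- cells turned from -1.02 to 2.52. Without Tnmd-/- cell 10 the ratio of Neat1 within the Tnmd-/- cells went to -5.99.

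Because Malat1 was well counted in every cell, the others were also set against it within a cell, a ratio that no scaling of the library changes. Kcnq1ot1 had 1.63 to 20.9 counts per 100 counts of Malat1 in the Tnmd-/- cells, with a median of 8.00, and 0.0113 to 5.66 in the WT cells, with a median of 0.644. In the less degraded cells this was 1.63 to 8.80 against 0.0113 to 0.145, and in the more degraded cells 7.21 to 20.9 against 1.14 to 5.66, so the genotypes again did not overlap within a level. Gm26917 ran from 0.0197 to 11.9 per 100 in Tnmd-/- cells and from 0.00205 to 0.202 in WT cells. Neat1 had 0.0455 to 10.5 and 0.0279 to 51.3, and WT cell 14, at 51.3, had the highest value of all.

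**Figure D3:**
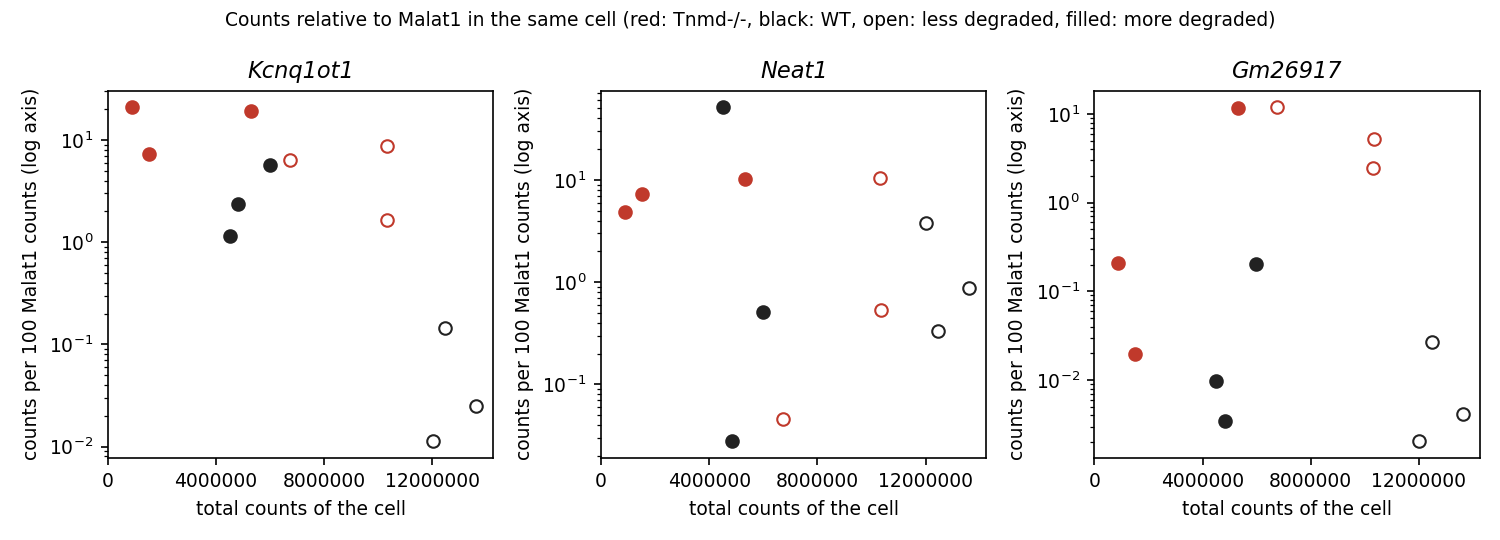
Counts of Kcnq1ot1, Neat1 and Gm26917 per 100 counts of Malat1 in the same cell (y axis, log scale) against the total counts of the cell (x axis), red for Tnmd-/-, black for WT, open for less and filled for more degraded. The 3 less degraded WT cells, which are the deepest, lie between 0.0113 and 0.145 for Kcnq1ot1, below every other cell, and the genotypes mix for Neat1.

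Levels of different genes can be compared only per length, so CPM was divided by the exonic length in kilobases. Summed over all 12 cells, Malat1 had 749 CPM per kilobase, Gm26917 35.2, Neat1 12.1, Kcnq1ot1 3.40 and Meg3 0.0656. Malat1 was first in 12 of 12 cells, and its lowest cell, at 213.7 CPM per kilobase, lay above the highest cell of any other, which was 205.4 for Gm26917 in Tnmd-/- cell 1. The second place went to Neat1 in 6 cells, to Gm26917 in 4 cells, all Tnmd-/-, and to Kcnq1ot1 in 2 WT cells. Over cells Gm26917 ranged from 0.0221 to 205.4, Neat1 from 0.0785 to 115.4 and Kcnq1ot1 from 0.00473 to 111.5 CPM per kilobase, so these neighbours in the order did not differ beyond their spread. The place of Gm26917 differed by genotype: it had 87.8 CPM per kilobase in the Tnmd-/- sum, against 17.5 for Neat1 and 7.35 for Kcnq1ot1, and 0.686 in the WT sum, against 8.60 and 0.799.

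Depth was matched by drawing 892713 counts at random from each cell, the total of the shallowest. At least 10 counts of Kcnq1ot1 were then left in 6 Tnmd-/- and 3 WT cells, against 6 and 5 before. For Neat1 the numbers were 5 and 4, against 6 and 5 before. Gm26917 stayed at 5 and 1, Malat1 at 6 and 6, and Meg3 at 1 and 0.

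Across the 12 cells the RNAs shared part of their order. Spearman's rho of CPM was 0.69 between Malat1 and Kcnq1ot1, 0.66 between Kcnq1ot1 and Gm26917, 0.54 between Neat1 and Kcnq1ot1, 0.52 between Malat1 and Neat1, 0.18 between Malat1 and Gm26917 and 0.15 between Neat1 and Gm26917. With the total counts of the cell rho was -0.63 for Malat1, -0.61 for Neat1, -0.77 for Kcnq1ot1 and -0.29 for Gm26917, and with the mitochondrial share it was 0.74, 0.38, 0.64 and 0.25. These are descriptions over 12 cells that share depth, degradation level and genotype, and the part of each in the relations was not tested.

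The genes most like each RNA over the 12 cells were looked up among those that reached 10 counts in 8 cells or more. For Malat1 they were Gm28661 (rho 0.80), Srsf1, a splicing factor of nuclear speckles (0.79), and AC124512.1 (0.78). For Kcnq1ot1 they were AC124512.1 (0.90), the translation factor Eif4a1 (0.83) and Gm13456 (0.82). For Neat1 they were the ribosomal protein gene Rps28 (0.73), the mitochondrially encoded mt-Nd2 (0.71) and the amino acid carrier Slc38a1 (0.66). For Gm26917 they were the chromatin remodelling subunit Baz1a (0.79), the translation factor Eif1 (0.74) and the splicing protein Hnrnph1 (0.71). These are the highest of 1080 values for Malat1, Neat1 and Kcnq1ot1 and of 1081 for Gm26917, and they share the depth of the cells. The order depended on the measure. By Pearson correlation of log values, Gm28661, Srsf1, Gm13456, Slc38a1, Eif1 and Hnrnph1 were not among the 3 highest of their RNA.

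Over the 809 long non-coding genes with at least 20 counts the median log2 ratio of Tnmd-/- over WT, with 1 CPM added, was 0.87, with 46.6% at least 2-fold higher and 35.7% lower. In a list of other named long non-coding RNAs, 12 had 20 counts, of which 3 were at least 2-fold higher and 4 lower, with a median of -0.64. Among its better counted members Mir99ahg, the host of a microRNA cluster, had 8.26 against 22.1 CPM, and Mir22hg, the host of miR-22, had 343 against 551 CPM. The snoRNA host genes, whose introns hold the RNAs that guide modification of ribosomal RNA, had 10 of 13 at least 2-fold higher in the Tnmd-/- cells and none lower, with a median of 1.75, beside 35.5% and 34.9% of all genes and a median of 0.06. Snhg6 had 152 against 40.0 CPM, Zfas1 181 against 53.2 CPM and Snhg14, of the Prader-Willi region, 82.6 against 3.91 CPM, while Snhg8 had 56.5 against 59.1 CPM. Without both shallow cells 9 were higher and 1 lower, with a median of 1.60, and the shares of all genes were not counted for that set. In the less degraded level alone 7 were higher and 2 lower, beside 28.3% and 31.2% of all genes. In the more degraded level alone 10 were higher and 1 lower, with a median of 2.42, beside 29.6% and 25.6% of all genes. Rn7sk, the small nuclear RNA that holds back the elongation factor P-TEFb, had at least 10 counts in 6 of 6 cells of each genotype, at 117 against 56.4 CPM.

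The neighbours of the imprinted members were sparse. Of 13 genes of the Kcnq1 domain 7 had 20 counts, none with at least 10 counts in more than 3 of 6 cells of a genotype. Of these 7, 4 were at least 2-fold higher in the Tnmd-/- cells and 1 lower, beside 35.5% and 34.9% of all genes. In the less degraded cells alone 4 were higher and 1 lower, beside 28.3% and 31.2% of all genes. In the more degraded cells alone 3 were higher and 2 lower, beside 29.6% and 25.6%. Cdkn1c, an inhibitor of the cell cycle that Kcnq1ot1 silences in cis, had 229 against 16 counts, and Tssc4 1737 against 14. For Cdkn1c the 229 counts came from Tnmd-/- cell 1 alone, and 1290 of those of Tssc4 from cell 20. Osbpl5 had 174 against 86 counts, Trpm5 46 against 0, and the carrier gene Slc22a18 1 against 1679, all 1679 in WT cell 4. Cd81 and Nap1l4 had 163 against 89.1 CPM and 56.3 against 34.7 CPM. Each of the first 5 had at least 10 counts in at most 2 cells of a genotype. In the list taken for the Dlk1-Dio3 domain Wdr25 had 2 against 1316 counts and Ppp2r5c 0 against 268. Whether these genes lie inside the domain or beside it was not checked. Both were at least 2-fold lower in the Tnmd-/- sum, as were 34.9% of all genes. WT cell 10 gave all 1316 WT counts of Wdr25 and 192 of the 268 of Ppp2r5c.

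Among the proteins that work with these RNAs, of 20 paraspeckle protein genes 6 were at least 2-fold higher and 7 lower, with a median of -0.13, beside 35.5% and 34.9% of all genes. Hnrnph1 had 997 against 291 CPM, Hnrnpa1 681 against 202 CPM and the cleavage factor Cpsf6 228 against 3.57 CPM, while Rbm14 had 12.4 against 56.3 CPM, Rbmx 11.5 against 80.8 CPM and Nudt21 5.24 against 22.7 CPM. Of 27 nuclear speckle genes 5 were higher and 5 lower, with a median of 0.15. Srrm2, a core protein of speckles, had 239 against 17.3 CPM, with at least 10 counts in 6 Tnmd-/- and 2 WT cells, Pnn 182 against 49.4 CPM and Prpf4b 213 against 73.4 CPM, and lower were Srrm1 with 42.0 against 160.3 CPM, U2af1 with 21.3 against 79.4 CPM and Srsf3 with 175 against 394 CPM. Of 18 genes of the nuclear exosome and of RNA retention 7 were higher and 7 lower, with a median of -0.66. Its better counted members were the exosome subunit Exosc1 with 151 against 53.8 CPM, the reader of methylated RNA Ythdc1 with 175 against 79.1 CPM and Zfc3h1 with 49.6 against 77.6 CPM. Of the genes listed for ribosomal RNA sequence only Lars2, the mitochondrial leucyl-tRNA synthetase, had 20 counts, at 8.29 against 3.89 CPM. The counts of these lists are descriptions, and nothing is read from them about the lists.

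**Figure D4:**
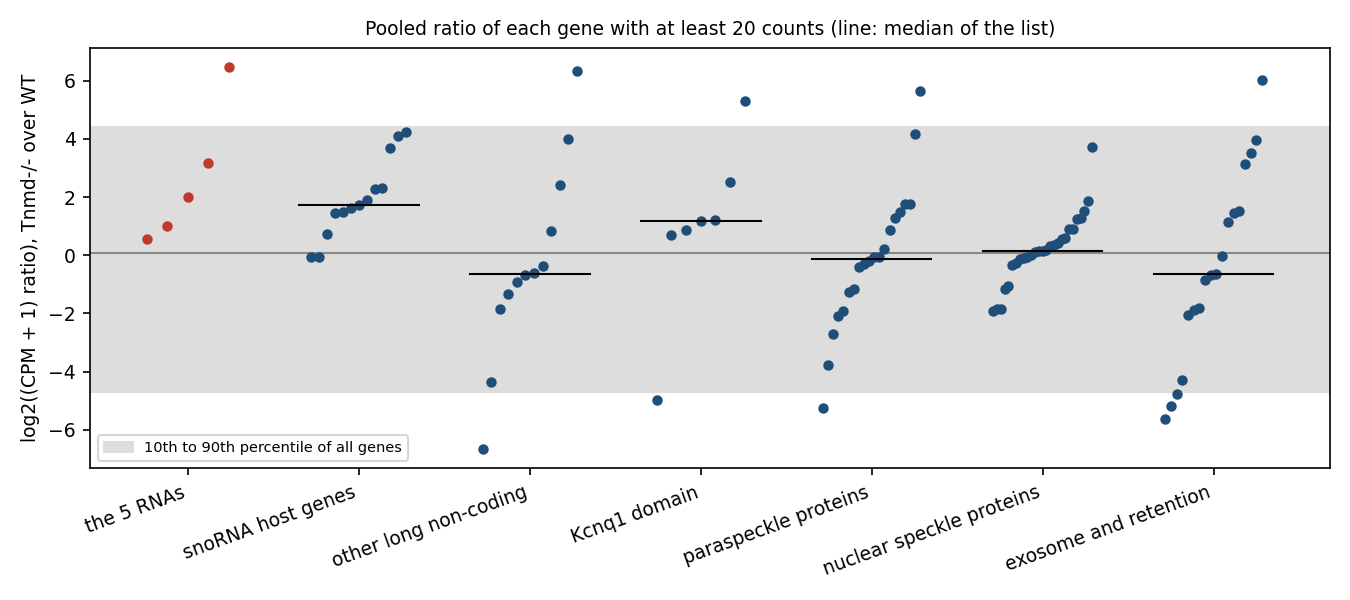
Log2 ratio of Tnmd-/- over WT with 1 CPM added (y axis) for each gene with at least 20 counts, as 1 point, in the 5 RNAs and in 6 gene lists (x axis), with a line at the median of each list, a grey band from the 10th to the 90th percentile of all 9768 genes (-4.69 to 4.40) and a grey line at their median of 0.06. The snoRNA host genes have a median of 1.75 and the paraspeckle protein genes one of -0.13.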

How the data were processed

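RNA of 12 single cells was sequenced by Smart-Seq2 (Nextera XT libraries, paired-end, Illumina HiSeq). The authors trimmed the reads, discarded those that did not map exclusively to mouse, used STAR 2.5.1b to place the rest on GRCm38 (Ensembl 96) and counted uniquely mapped exonic reads with featureCounts of Subread 2.0.0. The deposited values are raw counts per gene and cell, with no normalization, molecular identifiers or correction for degradation, and the exon length per gene. Reads that map to several copies were not counted, which bears on Gm26917. Groups came from the labels, and the degradation level from the study's own annotation of its cells.

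Counts were divided by the total of a cell, or of summed cells, times 1000000 (CPM). Intervals are exact (Poisson for counts, Clopper-Pearson for ratios, 95%) and cover counting error only, since amplified reads without identifiers are not independent molecules. Where 1 sum was 0 it was set to 3 counts, which gives a bound, and sums that both stayed at or under 3 counts were not compared. Shares of all genes refer to the 9768 that summed to 20 counts or more, with 1 CPM added. With 1 sample per genotype, no test was made.

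The members and lists were chosen with earlier results of these data known. Named are all members, Tnmd and Scx, every gene with 20 counts of the ribosomal RNA, Kcnq1 and Dlk1-Dio3 lists, at most 3 genes per direction of the other lists that reached 10 counts in 4 cells or more, and the 3 genes most like each member. Xist, neighbours and the other RNAs of the Dlk1-Dio3 domain at 0 counts were named after their values were seen. Gene positions and transcripts came from GENCODE M21, in which all symbols of the table were found, and Rn18s-rs5 from RefSeq (GRCm38). The sequence of 1 member is not reported here.

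The alternatives were equal weights for cells, TMM (edgeR 4.0.16) and DESeq2 1.42.0 size factors, totals without the 37 mitochondrial genes, each level or genotype alone, each cell left out, 5 CPM in place of 1, and minimums of 1 and 100 counts. Leaving out both shallow cells, leaving out each cell within a level or genotype, and the order without Cct6a and Ifi30 were added after seeing the data. The software was R 4.3.3 and Python 3.11.15 (scipy 1.17.1, pandas 2.3.3, numpy 2.4.6). The pooled ratio and its interval were tested on simulated counts. Within a genotype these differed between cells only by depth and counting error, so they checked the calculation alone.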

Additional observations from a re-analysis of the deposited data

Results flagged for a closer look

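In a group of 6 cells, a cell is listed here when its gap to the nearest other cell takes up an unusually large part of the range of log2(CPM + 1). For normally distributed values chance meets this rule in about 1 of 20 groups. Of the 9 groups with any spread, 2 held such a cell. Meg3 in the Tnmd-/- cells did so because cell 3, with 105 counts, stood alone above 5 cells at 0, so its gap was the whole range (a ratio of 1). Any count in 1 cell beside 5 cells at 0 gives that ratio, so the rate of 1 in 20 does not apply to it. Gm26917 in the WT cells did so because cell 1, with 112 counts, lay above 5 cells with 1 to 5 counts, and its gap took 0.909 of the range. Tnmd-/- cell 3 is also the cell with 51.8% mitochondrial counts, and the part of that in its Meg3 counts was not tested.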

How the results depend on the processing

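No paired analysis was possible because the cell numbers 1 and 10 that both genotypes share only number the picked cells, and the pooled ratios come from no test. Directions over all 12 cells did not change under the alternatives below, except for Gm26917 between degradation levels when Tnmd-/- cell 1 was left out, but most sizes moved by more than the counting interval, and the cause was not tested. Values follow in the order Malat1, Neat1, Kcnq1ot1 and Gm26917, on the log2 scale. For Tnmd-/- over WT (0.57, 1.03, 3.20 and 7.00), equal weights for cells gave 1.67, 1.74, 4.32 and 6.31, TMM factors 3.56, 3.39, 6.67 and 6.84, DESeq2 size factors 4.52, 3.71, 7.28 and 6.87, and totals without mitochondrial genes 0.61, 1.07, 3.24 and 7.04. The less degraded cells alone gave 0.22, 0.77, 7.61 and 10.15, the more degraded cells alone 1.23, 1.498, 3.17 and 6.02, and leaving out Tnmd-/- cells 3 and 7 gave 0.047, 0.46, 2.33 and 7.09. With each cell left out in turn Malat1 ranged from 0.29 to 0.97, Neat1 from 0.64 to 2.07, Kcnq1ot1 from 2.54 to 5.28 and Gm26917 from 6.59 to 10.44. For less over more degraded (-1.19, -2.12, -3.32 and -0.74), equal weights gave -2.01, -2.89, -4.35 and -0.055, TMM factors -3.85, -4.63, -6.69 and -0.69, DESeq2 size factors -5.29, -6.16, -7.85 and -1.52, and totals without mitochondrial genes -1.26, -2.19, -3.39 and -0.81. The Tnmd-/- cells alone gave -1.76, -2.54, -3.36 and -1.02, the WT cells alone -0.75, -1.81, -7.80 and -5.15, and leaving out Tnmd-/- cells 3 and 7 gave -0.64, -1.66, -2.34 and -0.86. With each cell left out the ranges were -1.58 to -0.89, -2.93 to -1.72, -4.45 to -2.57 and -1.42 to 3.05. For Meg3, a bound against 3 counts, Tnmd-/- over WT was 5.74, 5.77 without mitochondrial genes, 6.12 in the more degraded cells and 5.31 to 6.24 with a cell left out, and less over more degraded was -6.64, -6.71 without mitochondrial genes, -6.96 in the Tnmd-/- cells and -7.07 to -6.30 with a cell left out, with no value without Tnmd-/- cell 3 and none under the weighted scalings. Over all genes, the number at least 2-fold higher (3468) and lower (3407) in the Tnmd-/- sum stayed within 1.5 times these with 5 CPM added, with minimums of 1 and 100 counts, in each degradation level alone and under the equal-weight, TMM and DESeq2 scalings, and was not counted again under the other alternatives. In the less degraded WT cells, which were the deepest, Kcnq1ot1 and Gm26917 summed to 44 and 8 counts, on which their ratios in that level rest.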
